A study of Drosophila melanogaster with 4 samples.

Results

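The regions described here are the isolated, compact H3K79me1 regions of the autosomal arms 2L, 3L and 3R: stretches of a few kilobases that stand alone, with no other called region close by. They were chosen from the list that the authors made for the replicate set, and 200 of its 5330 regions met the rule. A region had to be at least 2000 bp and under 10000 bp wide, to lie at least 5000 bp from the next region of the list on each side, and to overlap a region of each ChIP replicate by 1 bp or more. It also had to lie outside the proximal ends of the arms, the last 2 Mb of 2L and 3L and the first 2 Mb of 3R. The comparison group was 984 regions of the same width, on the same parts of the same arms and also with a region in each replicate, but with a neighbour closer than 5000 bp. They are called crowded regions below.

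The material was whole embryos of wild-type Oregon-R Drosophila melanogaster, 14 to 16 h old, cross-linked with formaldehyde. Of 4 libraries, 2 were immunoprecipitated with an antibody against H3K79me1 and 2 were inputs, chromatin taken without the antibody. All 4 shared strain, genotype and stage, so the only contrast of the design was ChIP against input, and it entered through the authors' calls. Whole embryos mix many tissues, and a region may be marked in some of them and not in others. Depth is unknown, since the lists give positions and scores but no read counts.

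H3K79 lies on the exposed face of the nucleosome core rather than in a histone tail. Its methylation is written by the Dot1 enzymes, which lack the SET domain of other lysine methyltransferases and which in flies are represented by grappa. The mark is associated with active transcription, and monomethylation is the first of its states. A compact region with empty surroundings has both of its edges free of a neighbouring call, so its size, position and score can be followed from list to list. Gene positions in release 5 of the fly genome, the build of the lists, were not used here, so every region is given by its arm, start and end.

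The isolated regions held little of the marked sequence. They summed to 1.08 Mb, which was 4.10% of the bases that the replicate set covered on the allowed parts of the arms, and made up 6.82% of its 2933 regions there. Their widths ran from 2001 to 9993 bp, with a median of 5001 bp and a middle range (25th to 75th percentile) of 3325 to 7264.5 bp. The crowded regions had nearly the same widths, with a median of 5021 bp and a middle range of 3431 to 7249.5 bp. Differences between the groups therefore did not come with a difference in median width. All positions in the replicate-set list are even numbers, so edges in that list are resolved to 2 bp.

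No difference below carries a p-value. Width, spacing and overlap with the replicates chose the regions, and the replicate set rests on the same 2 ChIP libraries as the replicate lists. With 2 libraries, the smallest two-sided p of an exact sign-flip test is 0.5. Values are given for each replicate, and the SD between them is the only error that the design provides. Whether the replicates were separate collections of embryos is not stated, so this spread may be technical.

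The scores are the authors' own value for each region, on a scale that the headers do not name. They are used here as percentiles within a list, where 100 is the highest score. The isolated region with the highest score lay on 3L from 5576222 to 5583866 and was 7645 bp wide. Its score stood at the 99.7th percentile of the replicate set, and its counterparts stood at the 99.4th percentile in replicate 1 and the 99.8th in replicate 2. Replicate 1 covered 98.6% of it and replicate 2 covered 96.9%. Both replicates called it as 1 unbroken region, and the edges of the calls differed from those of the replicate set by at most 150 bp.

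Next in score was a 9257-bp region on 3R from 26707082 to 26716338, which was also far from any other region, with 54.4 kb empty on its left and 116 kb on its right. It stood at percentile 98.9 in replicate 1 and 99.1 in replicate 2. Replicate 1 covered 85.9% of it and replicate 2 covered 96.2%, and the difference lay at the right edge, where the call of replicate 1 ended at 26715034. The highest score on 2L belonged to a 9059-bp region from 3509786 to 3518844, covered to 99.1% and 96.6% in replicates 1 and 2. The 5 highest scores were completed by a 7245-bp region on 3L from 21169696 to 21176940 and a 5503-bp region on 3R from 8176916 to 8182418. Coverage of these was 94.2% and 99.97% for the former, and 96.0% and 95.7% for the latter.

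Score in the replicate set tended to rise with width across the isolated regions (Spearman's rho = 0.57). The widest regions were nevertheless not those with the highest scores, and they were not uniform. The widest isolated region, on 2L from 2037676 to 2047668 (9993 bp), was a single call in replicate 2, which covered 99.1% of it. Replicate 1 called it as 2 regions that covered 75.9%. The 9975-bp region on 3L from 13110696 to 13120670 was broken in both, into 2 calls covering 35.2% in replicate 1 and 3 calls covering 83.4% in replicate 2. The 9927-bp region on 3R from 6607404 to 6617330 was unbroken in both replicates and covered to 96.1% and 99.0%.

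At the other end of the range, the narrowest regions were just above the 2000 bp of the rule. They lay on 3R from 22155300 to 22157300 (2001 bp), on 2L from 9330428 to 9332436 (2009 bp) and on 2L from 20714136 to 20716216 (2081 bp). Replicate 1 covered 65.8%, 86.9% and 81.2% of them in that order, and replicate 2 covered 96.7%, 92.3% and 64.3%. Their scores were low, between percentiles 20.2 and 31.8 of the replicate set.

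**Figure D1:**
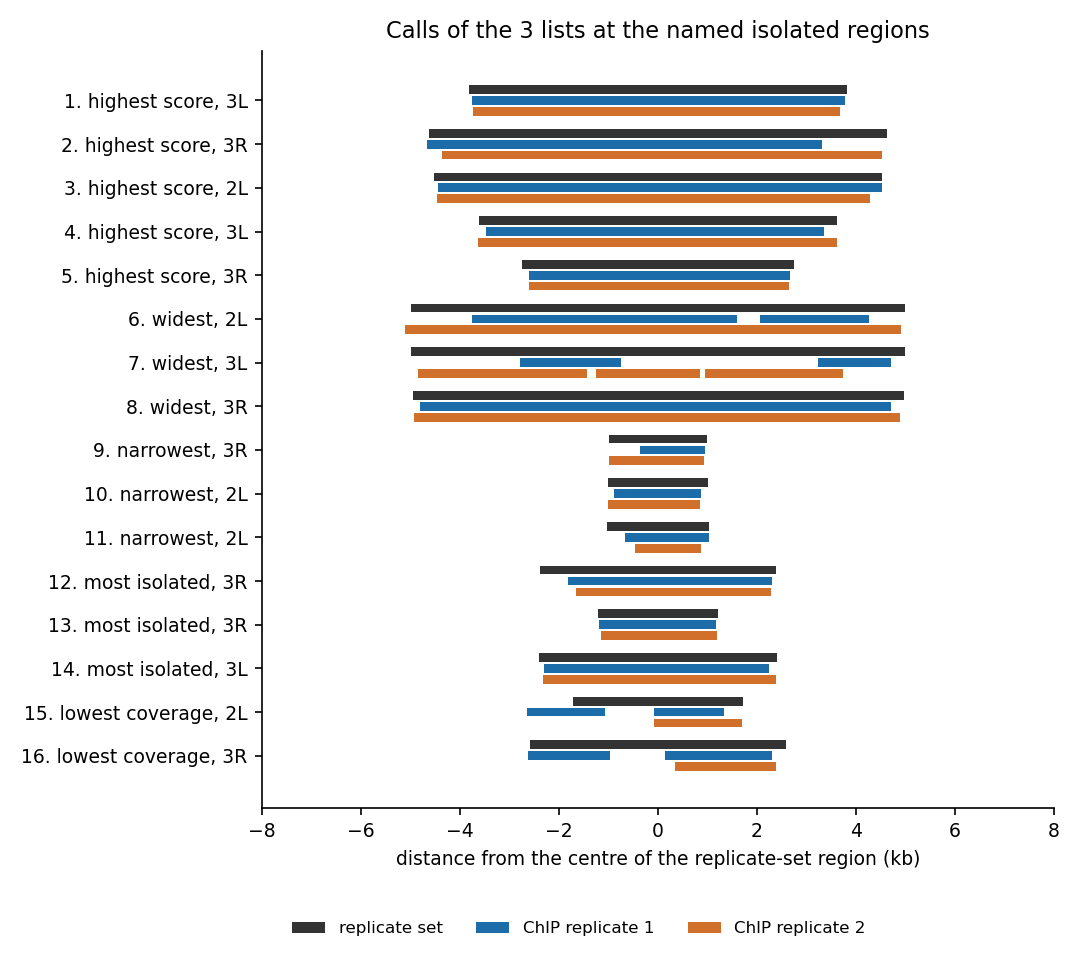
Bars show, for the 16 regions named by rule, the call of the replicate set (black) and every call of ChIP replicate 1 (blue) and replicate 2 (orange) within 8 kb, as distance in kb from the centre of the replicate-set region. The 5 regions with the highest scores are single calls in both replicates, while the 9975-bp region of 3L is broken in both.

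The first comparison asked how fully each replicate called the isolated regions of the replicate set. The rule already required a call of each replicate, and the replicate set rests on the same 2 ChIP libraries. Coverage and matching are therefore no separate support for the regions. Replicate regions covered 89.9% of the summed bases of the isolated regions in replicate 1 and 92.2% in replicate 2, or 91.0% ± 1.64 (SD, n = 2). The crowded regions were covered to 82.6% and 87.4%, or 85.0% ± 3.37. The isolated regions were thus covered 6.03 percentage points more (± 1.73, SD, n = 2), by 7.25 points in replicate 1 and 4.81 in replicate 2. Per region, the median coverage was 93.9% and 94.8% for isolated regions and 89.9% and 92.2% for crowded ones.

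A reciprocal overlap of at least 50% with 1 replicate region was found for 191 of the 200 isolated regions in replicate 1 (95.5%, 95% Wilson interval 91.7% to 97.6%) and for 194 in replicate 2 (97%, interval 93.6% to 98.6%). The share of crowded regions with such a match was 84.7% in replicate 1 and 88.9% in replicate 2. Both replicates had one for 188 isolated regions (94%), against 78.5% of the crowded regions. The intervals reflect counting error alone, as if regions were independent of each other. The 12 isolated regions without a match in 1 or both replicates included 6 on 3L. In 11 of the 12 the region was broken into several calls in at least 1 replicate. The break was not always in the replicate that lacked the match. On 3L from 14500436 to 14506296, replicate 1 had a single call and no match, while replicate 2 was broken and matched.

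At least 90% of the region was covered in both replicates for 104 isolated regions (52%), against 34.5% of the crowded regions. At least 80% was covered in both for 157 (78.5%), against 57.4%. At least 50% was covered in both for 195 (97.5%), against 87.5%. No isolated region was covered under 50% in both replicates, and 5 were covered under 50% in 1 of them.

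These differences were not seen when regions with low scores were left out. When only the 50% of replicate-set regions with the highest scores were kept and the rule was applied to them, which also removes low-scoring neighbours and so changes which regions count as isolated, 258 isolated regions were covered to 92.9% and crowded regions to 93.0%, a difference of -0.10 points ± 0.27 (SD, n = 2). The mean share with a reciprocal match was then 98.1% for isolated and 98.3% for crowded regions. Among the regions as first chosen, those between the 25th and 50th percentiles had a match in both replicates in 36 of 43 isolated (83.7%) and 223 of 391 crowded cases. Those between the 50th and 75th percentiles had one in 96.2% of 104 isolated and 95.5% of 334 crowded cases. The low-scoring isolated regions were narrower, with a median of 3171 bp against 3993 bp for the low-scoring crowded ones.

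**Figure D2:**
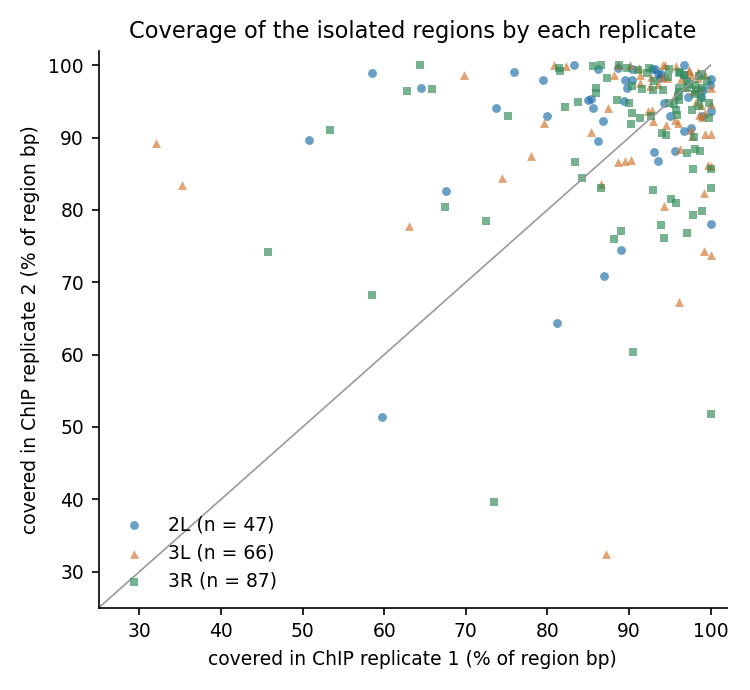
Each point is 1 of the 200 isolated regions, by the share of its bases inside calls of ChIP replicate 1 (x axis, %) and replicate 2 (y axis, %), with a marker for each arm and a line of equality. Most points sit near the upper right corner, and no region is covered under 50% in both replicates.

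Where the replicates differed at a region, neither was consistently the fuller. Coverage was higher in replicate 2 at 108 regions and in replicate 1 at 92. The median difference in size was 6.28 points, 132 regions were within 10 points and 13 were more than 30 points apart. Coverage in one replicate said little about coverage in the other across the 200 regions (Pearson's r = 0.19, Spearman's rho = -0.013). Among the crowded regions r was 0.33 and rho 0.28. Most values are close to the ceiling of 100%, which leaves little range for a correlation, and the regions share 2 libraries. The regions with the lowest mean coverage were on 2L from 11162858 to 11166298 (59.7% in replicate 1 and 51.4% in replicate 2), on 3R from 13595188 to 13600360 (73.5% and 39.6%), and the broken 9975-bp region of 3L.

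Isolated regions were mostly single calls. Replicate 1 placed 1 region on 178 of them and 2 on 22, and replicate 2 placed 1 on 189, 2 on 9 and 3 on 2. For a single call, the shares of 89% and 94.5% compare with 86.2% and 88.5% of crowded regions. In all, 26 isolated regions were broken in at least 1 replicate, 7 of them in both, 15 in replicate 1 alone and 4 in replicate 2 alone. The broken ones were wider, with a median of 7635 bp against 4541 bp for the 174 unbroken regions, and lower in score, at a median percentile of 54.1 against 64.2. The breaks were mostly short. The 22 gaps of replicate 1 had a median of 285 bp (20 to 3981 bp), and the 13 gaps of replicate 2 had a median of 206 bp (9 to 1601 bp).

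No replicate call on an isolated region reached into a second region of the replicate set. Joining of this kind occurred at 3.25% of crowded regions in replicate 1 and 5.69% in replicate 2, and the spacing rule makes it harder at isolated regions. The replicate call with the largest overlap was 10 kb or more at 0 isolated regions in replicate 1 and 1 in replicate 2 (0.5%). The shares of crowded regions were 0.305% and 1.83%.

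With no neighbour to merge with, both edges of an isolated region could be followed in each list. The outer edges of the replicate calls mostly lay slightly inside those of the replicate set. The median start was 103.5 bp to the right in replicate 1 and 77 bp in replicate 2, and the median end was 103 bp and 79.5 bp to the left. In replicate 1, 161 of 200 starts (80.5%) and 164 of 200 ends (82%) lay inside. In replicate 2 there were 162 starts (81%) and 166 ends (83%). Among crowded regions the shares were close to these, 84.8% and 81.7% in replicate 1 and 79.7% and 79.4% in replicate 2. The mean of the median start and end insets was 90.8 bp ± 17.7 (SD over replicates, n = 2). Crowded regions had larger insets, with median starts 140 and 104 bp inside and median ends 156.5 and 128 bp inside.

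The replicates placed the same edge close to each other. The median distance between their edges was 169.5 bp at the start and 149.5 bp at the end, against 248.5 and 252.5 bp for crowded regions. Their starts were within 250 bp at 131 of the 200 isolated regions (65.5%, against 50.3% of crowded regions) and within 1000 bp at 183 (91.5%, against 84.2%). Their ends were within 250 bp at 140 (70%, against 49.8%) and within 1000 bp at 186 (93%, against 82.0%). Both edges were within 500 bp at 139 isolated regions (69.5%), against 51.6% of crowded regions. Unlike coverage and reciprocal match, these distances were not recomputed with low-scoring regions left out, nor were the insets of crowded regions. The signed difference, replicate 2 minus replicate 1, had a median of -13 bp at the start and 30 bp at the end.

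**Figure D3:**
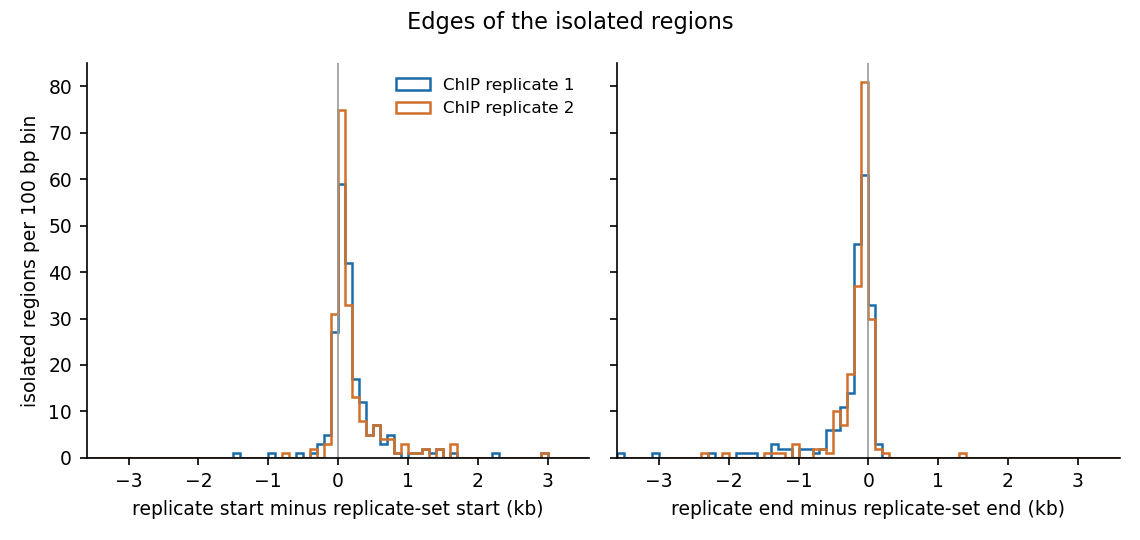
Histograms give the number of isolated regions per 100 bp bin by the position of the replicate start (left) or end (right) relative to the same edge in the replicate set, in kb, for ChIP replicate 1 (blue) and 2 (orange). Positive starts and negative ends lie inside the replicate-set region, and the medians are between 77 and 103.5 bp inside.

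Scores placed the isolated regions above the middle of their lists. In the replicate set the median percentile was 62.9, with a middle range of 51.7 to 75.3 and extremes of 14.0 and 99.7. Crowded regions had a median of 53.9 and a middle range of 40.3 to 72.8. The replicate calls that matched them best gave medians of 60.1 in replicate 1 and 56.0 in replicate 2 for isolated regions, against 48.6 and 46.0 for crowded ones. The difference was 10.7 points ± 1.09 (SD, n = 2). In the replicate set, the middle ranges were further apart at their lower ends (51.7 against 40.3) than at their upper ends (75.3 against 72.8). A percentile below 25 was found for 2 isolated regions (1%) against 4.17% of crowded regions, and one of at least 75 for 51 (25.5%) against 22.2%. Both groups had to have a call in each replicate, which bears on the low end. The 16 isolated regions that failed this need had a median percentile of 22.7.

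Score rose with width in both groups, and the isolated regions were higher in each width class of each list. From 2 to under 4 kb, the 72 isolated regions had a median percentile of 53.1 in the replicate set and the 330 crowded regions one of 42.0. Replicate 1 gave 45.6 against 29.8, and replicate 2 gave 43.8 against 26.7. From 8 to under 10 kb, the 40 isolated regions had a median of 78.3 and the 167 crowded regions one of 69.8. The differences in the replicate set were 11.1, 7.56, 3.79 and 8.54 points from the narrowest to the widest class. Those in replicate 1 were 15.7, 4.34, 6.30 and 5.06 points, and those in replicate 2 were 17.0, 8.18, 4.19 and 9.22 points.

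**Figure D4:**
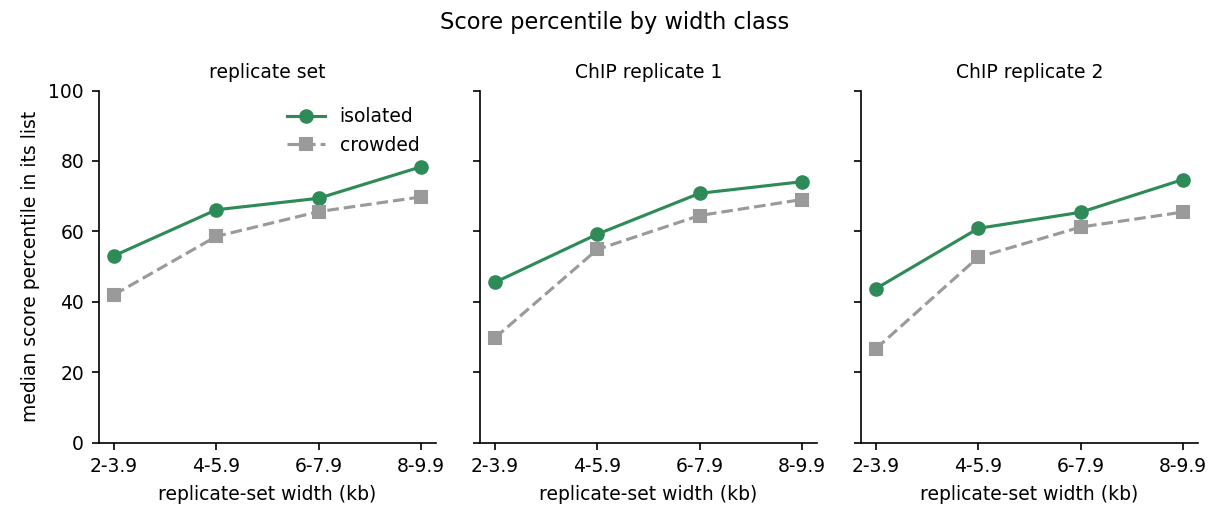
Median percentile of the authors' score within its list (y axis) by width class of the replicate-set region (x axis, kb), for isolated (green circles) and crowded (grey squares) regions in the replicate set and, for the best-matching call, in each ChIP replicate. The green points lie above the grey points in every class and list, by 3.79 to 17.0 percentile points.

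Replicates ranked the isolated regions alike. Over the 200 regions, the percentiles of the matching calls had a Pearson's r of 0.82 and a Spearman's rho of 0.82. With the rank of width removed from both, rho was 0.72. The crowded regions gave an r of 0.85 and a rho of 0.85, or 0.82 with width removed. The 2 percentiles differed by a median of 8.31 points and were within 10 points at 114 regions. The widths of the matching calls gave a rho of 0.87. These are descriptions over regions of 2 libraries, not over replicates.

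Spacing was followed beyond the 5000 bp of the rule, which fixes its lower limit. The nearer neighbour lay at a median of 12410 bp from an isolated region and the farther neighbour at 43341 bp. The nearer neighbour was at least 10000 bp away at 120 regions, at least 20000 bp at 52 and at least 50000 bp at 15. Only 1 region had more than 100 kb empty on both sides. It was the 4761-bp region on 3R from 8041154 to 8045914, with 197 kb free on its left and 131 kb on its right. It stood at percentile 89.9 of replicate 1 and 92.1 of replicate 2, which covered 86.6% and 83.0% of it. The next region to its right was also isolated and was one of the 5 with the highest scores, the 5503-bp region described above.

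The other regions with the most distant nearer neighbours were the 2009-bp region of 2L (76.6 kb), a 2433-bp region on 3R from 3635678 to 3638110 (74.1 kb), the 2001-bp region of 3R (69.0 kb) and a 4805-bp region on 3L from 10213706 to 10218510 (64.4 kb). The 2433-bp region was covered to 97.1% and 96.9% in the 2 replicates, and the 4805-bp region to 94.7% and 98.2%. All 4 were single calls in each replicate.

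Coverage, matching and score were also compared over the whole range of spacing. Crowded regions with a neighbour closer than 500 bp had a match in both replicates in 70.8% of 452 cases. This share was 80.4%, 86.7% and 88.9% with the nearer neighbour from 500, from 1000 and from 2500 bp away, each class ending where the next begins. Among isolated regions it was 92.5% from 5000 bp (80 regions), 94.1% from 10000 bp (68) and 96.2% at 20000 bp or more (52). The median percentile in the replicate set went from 49.7 in the closest class to 67.9 in the most distant. It was lower from 5000 bp (59.1) than from 2500 bp (62.7), so the unadjusted scores show no upward step at the limit of the rule. Median width was also lower from 5000 bp (4510 bp) than from 2500 bp (5145 bp), and width was not adjusted for. Across the isolated regions alone, distance and score percentile had a Spearman's rho of only 0.13.

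The thresholds had neighbours on both sides of them. The smallest distance inside the rule was 5025 bp, at a region on 3R from 25324168 to 25329658, and the largest outside was 4993 bp, at a region on 3L from 14530372 to 14539166. The former was covered to 88.2% and 76.0% in replicates 1 and 2, and the latter to 51.4% and 94.1%. Just below the lower width was a region of 1977 bp, covered to 89.98% and 87.7%, and just above the upper width one of 10033 bp, covered to 70.4% and 85.8%.

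Regions isolated in the replicate set were nearly always isolated in the replicates too. No further call lay within 5000 bp of the isolated region in replicate 1 in 197 of 200 cases (98.5%, against 11.6% of crowded regions), and in replicate 2 in 199 (99.5%, against 10.7%). The replicate-set list rests on the same 2 ChIP libraries, so the spacing rule bears directly on these shares and they are no separate support. How many replicate calls that list takes in was not counted. The 4 exceptions were 3 regions on 3R in replicate 1 and 1 on 3L in replicate 2. On 3R they were neighbouring regions from 6522248 to 6524904 and from 6531428 to 6534598, with a call 1843 and 3267 bp away, and a region from 25499040 to 25508132, with a call 2252 bp away. Counting the pieces of a broken region as neighbours of each other lowered the shares to 87.5% and 94%, against 11.4% and 9.96% of crowded regions.

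The surroundings of the isolated regions were poor in the mark well past the 5 kb set by the rule. Between 5 and 25 kb beyond each edge, replicate regions covered 19.2% of the bases in replicate 1 and 19.5% in replicate 2, or 19.3% ± 0.198 (SD, n = 2). Around crowded regions the share was 44.7% and 47.8%, or 46.2% ± 2.18. The allowed parts of the arms as a whole were covered to 33.2% ± 1.33, so isolated regions lay 13.9 points ± 1.13 below the arms. Between 5 and 55 kb the share was 24.3% ± 0.534 around isolated and 42.2% ± 1.72 around crowded regions. It was still 26.8% and 27.5% in the last kilobase before 50 kb from the isolated regions. A region with a neighbour beyond a set distance must have a lower share just past that distance, so part of the shortfall follows from the rule.

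**Figure D5:**
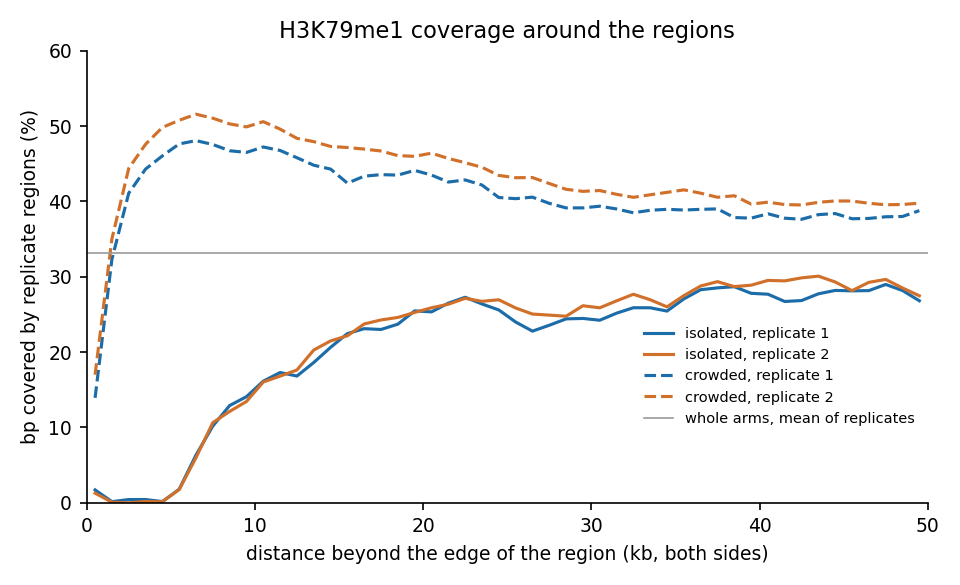
Share of bases inside replicate regions (y axis, %) in 1-kb bins by distance beyond the edge (x axis, kb, both sides together), around isolated (solid) and crowded (dashed) regions in ChIP replicate 1 (blue) and 2 (orange), with the mean of the whole arms (grey). The isolated lines stay near 0 up to 5 kb, as the rule requires, and remain below the grey line of 33.2% up to 50 kb.

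The neighbours of isolated regions were not mainly broad domains. Of 400 neighbours, 1 on each side of each region, 89 (22.2%) were at least 10 kb wide and 36 (9%) at least 20 kb. Among the neighbours of crowded regions the shares were 29.2% and 11.9%. The neighbours were also found in both replicates about as often, 75.2% against 73.1%. Another isolated region was the neighbour in 110 of the 400 cases (27.5%). The nearer neighbour of a crowded region cannot be isolated under the rule. Of the farther neighbours, 25% of those of isolated regions were themselves isolated, against 9.65% of those of crowded regions. The rule shapes this comparison too, since a farther neighbour closer than 5000 bp cannot be isolated. Farther neighbours of crowded regions lay at a median of 5040 bp (25th percentile 1685 bp), and those of isolated regions at 5519 bp or more. The share among neighbours that could be isolated was not computed.

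By arm, 3R held 87 isolated regions, 3L held 66 and 2L held 47. This was 3.36 per Mb on 3R, 2.93 on 3L and 2.24 on 2L. As a share of all regions of the same width on the allowed part of the arm, they made up 17.6% on 3R (95% Wilson interval 14.5% to 21.3%), 12.2% on 3L (9.74% to 15.3%) and 11.1% on 2L (8.46% to 14.5%). With a distance of at least 10000 bp, 3R was again highest with 2.20 per Mb, against 1.55 on 3L and 1.33 on 2L. Under the other settings tried, 3R also had the most per Mb, except with a lowest width of 3000 bp. There 3L and 3R were nearly equal, at 2.62 and 2.59 per Mb. The lead of 3R over 3L was small with the 50% highest scores (4.13 against 4.08) and with regions less than 1000 bp apart joined (3.67 against 3.55). It was larger with a distance of at least 2000 bp (5.48 against 5.10) and with 50% of the region covered in each replicate (3.28 against 2.79). Median widths were alike, 4879 bp on 3R, 5266 bp on 3L and 4941 bp on 2L. The share with a match in both replicates was 95.4% on 3R, 90.9% on 3L and 95.7% on 2L. It was also lowest on 3L among crowded regions, at 74.9%, against 80.5% on 3R and 80.7% on 2L.

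Along each arm, the density was uneven. The allowed part of an arm was divided into 5 equal lengths, numbered from the left end of the arm's coordinates. 2L ranged from 1.43 isolated regions per Mb in the fourth part to 3.81 in the third. As shares of the regions of that width, these were 9.38% and 16%. The first part of 2L had 16.1% and the fifth 7.78%, so share did not follow density there. On 3L the range was from 2.00 in the fourth part to 3.77 in the third, with shares of 7.09% and 15.7%. On 3R it was from 2.32 in the third part to 4.44 in the fourth, with shares of 14.0% and 20.5%. The first and second parts of 3R had shares of 20% and 19.3%. Each of these parts held between 6 and 23 isolated regions, so the counting error is large.

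Of the regions that were isolated and of the right width, few had failed the requirement of a call in each replicate. The 200 made up 92.6% of 216 (95% Wilson interval 88.3% to 95.4%), against 984 of 1239 (79.4%, 77.1% to 81.6%) for crowded regions. Of the remaining 16, 7 had a call in replicate 1 alone, 7 in replicate 2 alone and 2 in neither. These 16 were narrow and low in score, 2335 bp wide at the median and at a median percentile of 22.7. In contrast, 2 of the 16 were wider than 5 kb, on 3R from 11274980 to 11281080 and from 19650200 to 19655678, and replicate 1 alone covered them, to 69.0% and 66.3%.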

How the data were processed

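Regions of enrichment were analysed as deposited, 1 list for each of 2 ChIP replicates and 1 for the replicate set, on FlyBase release 5, per the file headers. The submitters' processing notes name Bowtie 0.12.7 as the aligner. For the region caller, its threshold and the combining of replicates, the sources used here give nothing. The score of a region is the authors' deposited value on an unnamed scale, and was used only as a percentile within its list. Starts and ends, in bp, were read from the deposited lists as 1-based and inclusive.

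Distance was counted as the bases between 2 regions of the replicate-set list. A replicate call matched a region if it had the largest overlap. Edges were taken from the outermost overlapping calls. Python 3.11.15 with pandas 2.3.3, numpy 2.4.6 and scipy 1.17.1 was used, and the rule was tested on simulated lists. Depth is unknown, which limits how weak a region could be called. The input libraries entered no comparison of their own. The members, groups and settings were chosen with earlier results of these data known. Regions were named by a rule: the highest scores overall and by arm, the widest, the narrowest, the most distant from a neighbour, the least covered and those next to a threshold. Others, such as those with extra calls nearby, were named after their values were seen. The reference table at hand is of release 6, so gene and sequence context was not analysed here.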

Additional observations from a re-analysis of the deposited data

How the results depend on the processing

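Coverage, reciprocal match, isolation in the replicates, score percentile, flank coverage, support in both replicates, density, edge insets and the score correlation were recomputed under other settings. Comparisons by class, of neighbours, of single calls and of the distance between replicate edges were not. Edge insets were recomputed for isolated regions alone. No paired analysis was possible because the inputs, which share replicate numbers with the ChIP libraries, have no list of their own among those used. The differences were taken within each ChIP replicate. When only the 50% of regions that score highest were kept, the isolated-minus-crowded difference was -0.10 points for coverage, -0.27 for reciprocal match and -3.03 for score percentile, against 6.03, 9.46 and 10.7 for all regions. This setting selects on score and also removes low-scoring neighbours, so it changes which regions are isolated. In that setting the difference in isolation in the replicates was 66.5 points, 100% of isolated and 99.8% of crowded regions had both replicates, and there were 3.71 isolated regions per Mb. Requiring 50% of the region covered in each replicate gave 3.24 points for coverage, 4.05 for reciprocal match and 5.74 for score. Crowded regions with no replicate call needed gave 12.6, 19.9 and 15.2 points. With a distance of at least 2000 bp the differences were 65.5 points for isolation, 12.0 for score and -14.8 for flank coverage, with 86.6% of isolated and 79.3% of crowded regions in both replicates and 5.20 per Mb. With at least 10000 bp they were 85.9, 11.9 and -33.7 points, with 1.73 per Mb. A lowest width of 3000 bp gave 7.75 points for score, 97.7% of isolated and 89.4% of crowded regions in both replicates and 2.40 per Mb. Joining regions less than 1000 bp apart gave 67.2 points for isolation, 6.46 for score, and 87.4% of isolated and 78.9% of crowded regions in both. Flanks of 5 to 55 kb gave -18.0 points. The correlation of scores was 0.72 with width removed. Leaving out 1 replicate gave 4.81 to 7.25 points for coverage, 8.08 to 10.8 for reciprocal match, 76.1 to 84.0 for isolation, -28.3 to -25.5 for flank coverage and 9.93 to 11.5 for score percentile, the last chosen after seeing the data. The cause of these shifts was not tested beyond what each setting changes by construction. Unknown depth limits all calls of weak regions.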

Other observations

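Isolated regions also occurred in a row, with no other region of the replicate set between them. In all, 94 of the 200 stood next to at least 1 other isolated region, and 38 stood in 11 runs of at least 3. There were 6 such runs on 3L, 5 on 3R and 0 on 2L. These runs were looked for after the data were seen, and how often spacing alone would give them was not tested.

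The longest runs held 5 regions each. The run on 3L, from 3936154 to 4071750, spanned 136 kb with regions of 2463, 3207, 3347, 6167 and 6525 bp. The highest of them, from 4037252 to 4043418, stood at the 92.0th percentile in replicate 1 and the 67.9th in replicate 2. All 5 were ranked higher in replicate 1 than in replicate 2, and all 5 were also covered more fully there, to between 96.0% and 100% against 67.3% to 94.6%. The run on 3R, from 6522248 to 6643230, spanned 121 kb with regions of 2657, 3171, 8871, 9927 and 2545 bp. It did not share the order of the replicates, since all 5 were ranked higher in replicate 2 and coverage was higher there in only 2 of the 5. The 8871-bp region, from 6585184 to 6594054, stood at the 83.5th percentile in replicate 1 and the 95.4th in replicate 2.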
